A study of Mus musculus with 9 samples.

Results

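In a series with 3 genotypes that differ in the number of copies of 1 allele, the heterozygote can be set against the midpoint of the other 2. This was done here for all 9 arrays of the series and for 45037 of the 45101 probe sets in its table, leaving out the 64 control probe sets. For each probe set, the average of the wild-type and homozygous means was subtracted from the heterozygous mean on the log2 scale. The result is called the deviation: it is positive where heterozygous blood lay above the midpoint, negative where it lay below, and 0 where each copy of the allele added the same log2 step. A fold from the midpoint is 2 raised to the size of the deviation. No measured value was used to choose the probe sets.

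The RNA came from peripheral blood of mouse embryos at stage E12.5, which were Cbfb+/+ (wild type, 0 copies of the allele), Cbfb+/ΔC95 (heterozygous, 1 copy) or CbfbΔC95/ΔC95 (homozygous, 2 copies). All were on a mixed C57BL6/129SvEv background, with no treatment named. Each genotype had 3 whole-genome Affymetrix expression arrays, and each pool held the blood of 8 to 10 embryos. The sources used here do not say whether a genotype's 3 arrays had a pool each. The p-values therefore cover only array-to-array spread, which may be technical. The allele is carried by every cell of the embryo, and the labels name ΔC95 without describing it further. In bulk blood, fewer cells of a type and less RNA per cell cannot be told apart.

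Cbfb encodes the non-DNA-binding partner of the RUNX transcription factors, and the 2 proteins together form core binding factor, which is needed for definitive blood formation. The human leukemia fusion CBFβ-SMMHC joins this partner to the smooth muscle myosin encoded by Myh11, and it is known to interfere with RUNX1 function. At this age the blood consists mainly of primitive erythrocytes from the yolk sac, with few macrophages and megakaryocyte-lineage cells. A gene whose level follows allele number can do so evenly, or can stay near the wild-type level until both copies are altered, or can reach the homozygous level with 1 copy. In a further pattern the heterozygote lies outside the range of both other genotypes.

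Arrays of a genotype correlated at 0.9958 to 0.9978 over the 45037 probe sets, and arrays of different genotypes at 0.9867 to 0.9951. Homozygous arrays varied more among themselves: the median SD of a probe set was 0.092 there, 0.072 in heterozygous and 0.068 in wild-type arrays. The embryonic globins Hba-x, Hbb-y and Hbb-bh1 had log2 means between 14.18 and 14.42 in every genotype. None of 15 lymphoid markers deviated by the test described below, where 5.18% of all genes did, so this says little. Among 24 poly-A spike-ins, bacterial RNAs added before labelling, the mean was 10.38 in wild-type arrays, 11.26 in heterozygous ones and 11.96 in homozygous ones, which left a deviation of 0.09. Hybridization spike-ins, added after labelling, had a deviation of -0.14. The Y-linked Eif2s3y deviated by -1.16 and the X-inactivation transcript Xist by 0.36 in their brightest probe sets, so the sex makeup of the pools is not known to be equal. Other probe sets gave 0.00 for Eif2s3y, and 0.42 and 0.24 for Xist. Their part in the results below was not tested. For 1621 probe sets the 3 arrays of a genotype held exactly the same deposited value. Of 1637 such cases, 1219 were in the genotype with the middle mean, so the spread within that genotype may be understated there. Pf4 (wild type) and Csf1r, Lyz2 and Mpo (heterozygous), described below, are among them. Leaving these probe sets out of the count left 1650 of the 1675 deviations described next.

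The heterozygote left the log2 midpoint far more often upward than downward. The deviation passed the test for 1675 of 45037 probe sets (3.72%; limma, 2-sided, adjusted p under 0.05), of which 1195 were above (2.65%) and 480 below the midpoint (1.07%). Reading each of 18193 genes by its brightest probe set, 942 genes deviated (5.18%), 663 above (3.64%) and 279 below (1.53%). The median deviation over all genes was -0.01. In the direct comparisons, homozygous against wild-type blood gave calls for 9019 probe sets (20.0%), heterozygous against wild-type for 8.56% and heterozygous against homozygous for 12.1%. These comparisons share arrays, so their counts are not independent. Whether the calls lay mostly above the midpoint depended on how arrays were set equal. With array medians set equal 72% of the calls lay above, and with a cyclic loess scaling 71.3%. With the means of 8 reference genes set equal, the median of all deviations moved to -0.11, and 13.7% rather than 71.3% of the calls lay above the midpoint. With the poly-A spike-ins set equal it was 16.2%. Leaving out heterozygous array 2 lowered the counts to 641 above and 238 below, and leaving out heterozygous array 1 lowered them to 663 and 246. The count below the midpoint was 262 without heterozygous array 3 and 306 without wild-type array 2 or without wild-type array 3.

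**Figure D1:**
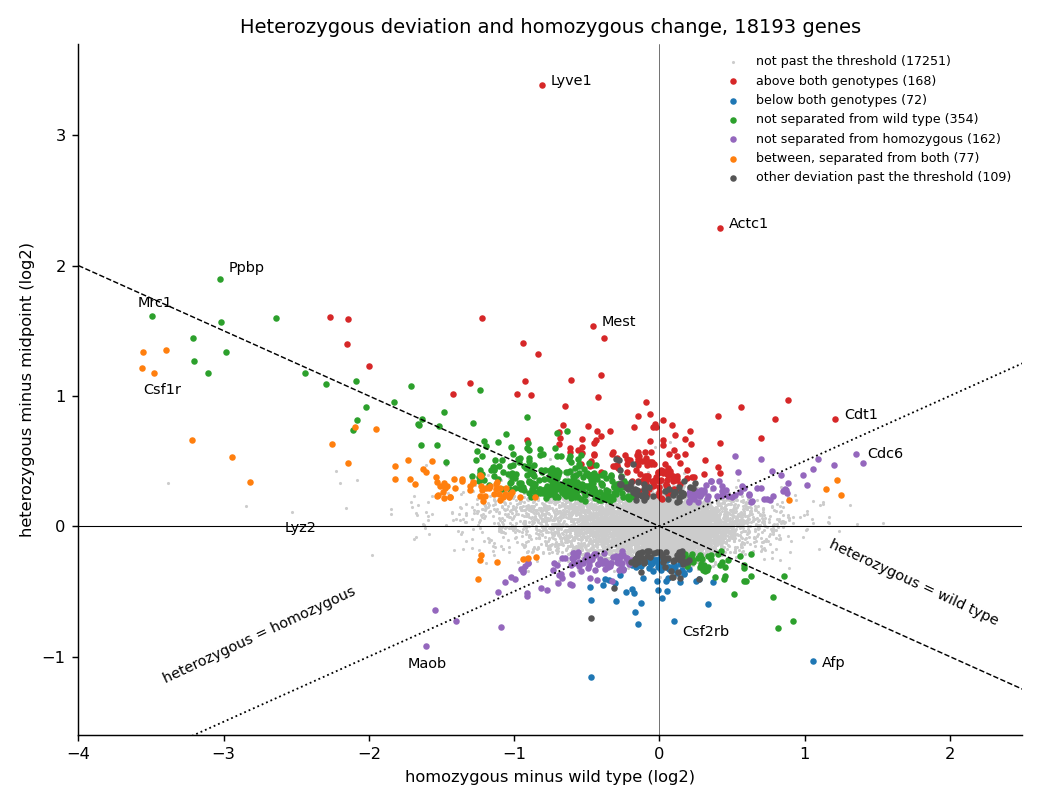
Each point is 1 of 18193 genes, with the homozygous minus wild-type log2 difference on the horizontal axis and the heterozygous deviation from the midpoint on the vertical axis. On the dashed line the heterozygote equals wild type and on the dotted line it equals the homozygote; colours give the class of the 942 genes whose deviation passed the test, such as 168 above both genotypes and 354 not separated from wild type.

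The called genes fell into classes by where the heterozygous mean lay. It was above both other genotypes, by a test against each, for 168 genes (0.923% of all genes), and below both for 72 (0.396%). For 354 genes (1.95%) it differed from the homozygous but not from the wild-type mean, and for 162 (0.890%) from the wild-type but not from the homozygous mean. A further 77 genes (0.423%) were separated from both and lay between them off the midpoint, and 109 (0.599%) could not be placed. That a gene was not separated from a genotype does not show that the 2 means were equal. The 3 genotypes share 1 estimate of spread per probe set. Variable homozygous arrays can therefore leave a heterozygote not separated from wild type although their arrays do not overlap. At probe set level the same 4 classes held 310 (0.688%), 126 (0.280%), 613 (1.36%) and 275 (0.611%), and the last 2 held 130 (0.289%) and 221 (0.491%). Without wild-type array 1 the number below both fell to 72, without wild-type array 2 or 3 to 78. The wild-type side held 355 without heterozygous array 1 and 341 without array 2. The homozygous side held 140, 129 and 137 without heterozygous arrays 1, 2 and 3, and 182 and 172 without wild-type arrays 2 and 3. With the reference genes set equal, 165 probe sets were above both and 1198 below both.

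Among genes past the test, more lay above than below the log2 midpoint whichever way the homozygous level had changed. Homozygous levels were below wild type for 2711 genes (14.9%), of which 425 (15.7%) were above and 117 (4.32%) below the midpoint. They were above wild type for 1950 genes (10.7%), of which 82 (4.21%) were above and 53 (2.72%) below. By sign alone, 900 of these 1950 genes lay above and 1050 below the midpoint. Of the 2711 lower genes, 1678 lay above and 1033 below by sign. Among 346 genes lower by at least 1 on the log2 scale the share above was 38.7%, and among 35 genes lower by at least 2 it was 80.0%, or 28 genes. All 35 deviations were positive. Of the 29 genes higher by at least 1, 10 were above the midpoint (34.5%) and 1 below (3.45%), shares close to the 38.7% and 3.18% of the genes lower by at least 1. Both contrasts use the same arrays.

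Part of this asymmetry depends on which midpoint is used. A gene whose RNA falls by equal linear steps lies above the midpoint of log2 values by arithmetic alone. Against the midpoint of the linear values, 888 probe sets were above (1.97%) and 556 below (1.23%), and the share above fell from 71.3% to 61.5% of the calls. At gene level 482 were above (2.65%) and 317 below (1.74%). Among genes lower by at least 1 in homozygotes, 61 (17.6%) were then above and 27 (7.80%) below, against 134 and 11 on the log2 scale. Among the 1950 genes higher in homozygotes, 55 (2.82%) were above and 63 (3.23%) below, against 82 and 53 on the log2 scale. For genes with no homozygous change past the test the scale made little difference, with 156 against 146 above and 109 against 101 below.

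**Figure D2:**
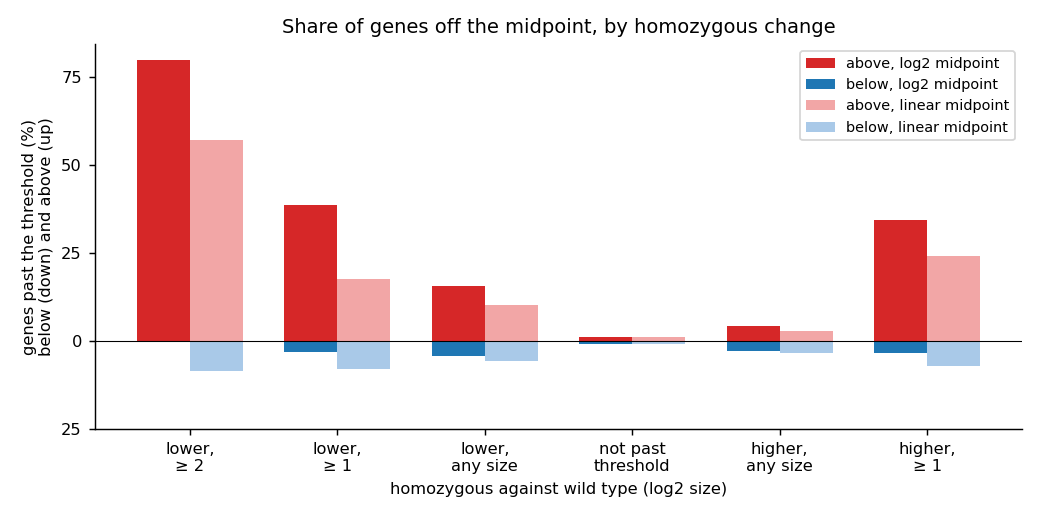
Percent of genes past the threshold above (upward bars) and below (downward bars) the midpoint, grouped by the size and direction of the homozygous change in log2 units; dark bars use the midpoint of log2 values and pale bars that of linear values. Among genes lower by at least 2 in homozygotes, 80.0% were above the log2 and 57.1% above the linear midpoint.

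The genes in which the heterozygote exceeded both other genotypes included the 2 largest deviations of the series. Lyve1, a hyaluronan receptor of lymphatic endothelium and of some tissue macrophages, was at 6.87, 6.84 and 6.66 in heterozygous arrays. Wild-type arrays were at 3.86, 3.83 and 3.73, and homozygous arrays at 2.92, 3.08 and 3.00. All 3 heterozygous values lay above all others, and the deviation reached 3.39 ± 0.06 (log2, SE, adjusted p = 1.20e-10 by limma, 10.5-fold). A second, separate probe set of Lyve1 gave 0.30 and did not pass the test (adjusted p = 0.0993, limma), so the size rests on 1 probe set.

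Actc1, the actin of heart and embryonic skeletal muscle, was at 4.96, 4.85 and 5.03 in wild-type, at 7.33, 7.50 and 7.50 in heterozygous and at 5.32, 5.37 and 5.40 in homozygous arrays. Its deviation was 2.29 ± 0.06 (SE, 4.89-fold, adjusted p = 3.03e-09, limma), with no overlap between heterozygous and other arrays. Other muscle genes moved the same way at lower levels. Of 18 muscle genes measured, 6 were above and none below the midpoint, and all 6 were above both genotypes: besides Actc1 these were the smooth muscle actin Acta2 at 0.67, the muscle regulatory factor Myog at 0.65, the myosin light chain Myl1 at 0.54, and the troponins Tnnc1 and Tnnt1, both at 0.49. Des, Ttn, Nppa and Myh6, which encode desmin, titin, the atrial peptide and the atrial myosin, had deviations between -0.12 and 0.00. The median of the list was 0.21, against -0.01 over all genes, of which 3.64% were above the midpoint. The summed linear level of the 18 genes was 609 to 654 in heterozygous, 406 to 414 in wild-type and 402 to 438 in homozygous arrays, so heterozygous arrays were clear of both. This sum includes Actc1, the largest deviation of the list, and was not taken without it.

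Part of the connective tissue genes lay above both genotypes too. Of 20 genes of mesenchyme and matrix, 9 were above and 2 below the midpoint, with a median deviation of 0.28. Over all genes 3.64% were above and 1.53% below. The fibrillar collagen gene Col3a1 was at 6.27, 6.23 and 6.19 in wild-type, 7.19, 6.98 and 7.32 in heterozygous and 5.44, 5.09 and 5.35 in homozygous arrays. Its 3 groups did not overlap, and the deviation was 1.40 ± 0.09 (SE, adjusted p = 1.86e-06, limma). A second probe set gave 0.36, which passed. The intermediate filament gene Vim deviated by 1.13, the secreted glycoprotein gene Fstl1 by 0.84 and Col1a2 by 0.77, each above both genotypes. Col1a1, whose product pairs with that of Col1a2 in type I collagen, was at 0.07, and the fibroblast receptor gene Pdgfra at 0.05. The basement membrane collagens went the other way: Col4a2 was below both genotypes at -0.31, and Col4a1 was at -0.20 (adjusted p = 0.0483, limma), a call lost on leaving out any 1 of the 9 arrays except homozygous array 3. Summed levels of this list overlapped between wild-type (2257 to 2342) and heterozygous arrays (2316 to 2341).

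Imprinted genes, which are expressed from 1 parental allele and are mostly high in embryonic tissue, were the list with the largest share above both genotypes. Of 18 measured, 8 were above and 1 below the midpoint, and 7 of the 8 exceeded both genotypes. Over all genes 3.64% were above and 1.53% below the midpoint, and 0.923% exceeded both genotypes. Mest was at 5.18, 5.13 and 4.95 in wild-type, 6.30, 6.38 and 6.49 in heterozygous and 4.40, 4.80 and 4.68 in homozygous arrays, a deviation of 1.53 ± 0.09 (SE, adjusted p = 9.89e-07, limma). The zinc finger gene Plagl1 deviated by 1.32 in its brightest probe set, while its other 2 gave 0.00 and -0.10. The growth factor gene Igf2 deviated by 0.70, the growth arrest genes Ndn and Cdkn1c by 0.78 and 0.66, Dlk1, which encodes a Notch-like surface protein, by 0.63 and the neural Nnat by 0.97. Peg3 was the eighth, at 0.62 and not separated from wild type. Meg3, Grb10 and Snrpn were between -0.09 and 0.00. Phlda2, a placental growth suppressor, was below both genotypes by -0.49, with 5.30, 5.26 and 5.26 in heterozygous arrays against 5.71 to 5.83 in all others.

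Further genes above both genotypes belonged to no single list. Marcksl1, which encodes an actin-regulating protein, was at 8.23, 8.18 and 8.10 in heterozygous arrays and between 6.41 and 7.02 in the other 6, a deviation of 1.45 ± 0.07 (SE, adjusted p = 3.49e-07, limma). Gja1, the gap junction gene of connexin 43, was at 5.44, 5.34 and 5.10 against 4.26 to 4.42 in wild-type and 2.77 to 3.36 in homozygous arrays, and its deviation was 1.60. Of its other 5 probe sets, 3 were called above the midpoint. Of 17 neural genes 3 were above the midpoint, against 3.64% of all genes. These were the tubulin genes Tubb2b (0.92) and Tubb3 (0.54) and the retinoic acid binding protein gene Crabp1 (0.82). Tubb3 lost its call without any 1 of the heterozygous arrays. Sox2, Nes and Dcx, which mark neural progenitors and young neurons, were at 0.20, 0.06 and 0.04 and did not pass. Of 20 endothelial genes only Lyve1 and the platelet and endothelial Vwf (0.72) were called, and Cdh5, Kdr and Tie1, which define endothelium, were at 0.11, 0.10 and 0.05. Summed endothelial markers were at 714 to 736 in heterozygous against 606 to 627 in the other arrays, a sum that includes Lyve1. The part of other tissue in these changes was not tested.

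**Figure D3:**
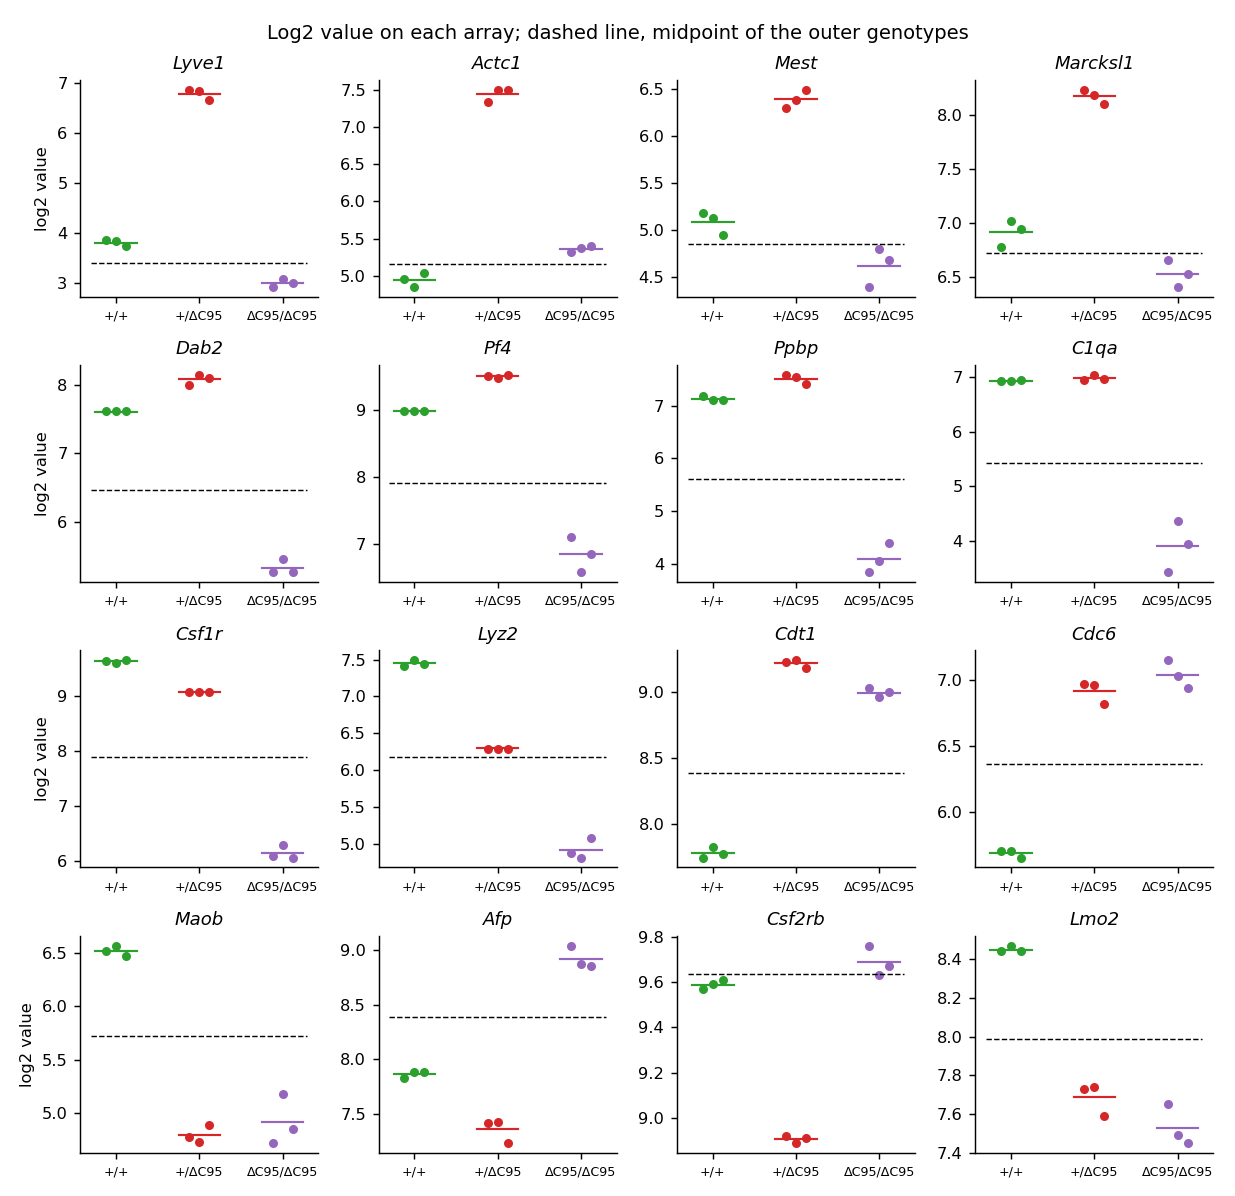
Log2 value of 16 genes on each of 9 arrays (points; 3 per genotype, with the genotype mean as a short line), and the midpoint of wild type and homozygote as a dashed line. Lyve1, Actc1, Mest and Marcksl1 have the heterozygote above both genotypes, Ppbp and C1qa near wild type and Lyz2 near the midpoint. Cdc6 and Maob have it near the homozygote, and Afp and Csf2rb below both genotypes.

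Megakaryocyte and platelet genes that deviated did so above the midpoint. Of 18 measured, 11 were above and none below the midpoint, against 3.64% and 1.53% of all genes. Of the 11, 9 were not separated from wild type and 2 were above both genotypes. The median deviation of the list was 0.51. The same 11 to 0 split was found with the linear midpoint, with reference genes set equal and with poly-A spike-ins set equal. Ppbp and Pf4, chemokines stored in platelet granules, lie next to each other on chromosome 5 with start sites 3917 bases apart. Ppbp was at 7.18, 7.10 and 7.10 in wild-type, 7.58, 7.54 and 7.40 in heterozygous and 3.84, 4.06 and 4.39 in homozygous arrays. Pf4 was at 8.99 in all 3 wild-type arrays, at 9.51, 9.48 and 9.53 in heterozygous and at 7.10, 6.58 and 6.85 in homozygous arrays. In both genes the homozygous arrays stood well below the rest and the heterozygous arrays above wild type. The deviation was 1.90 ± 0.10 for Ppbp (SE, 3.72-fold, adjusted p = 4.92e-07) and 1.59 ± 0.09 for Pf4 (SE, 3.01-fold, adjusted p = 8.57e-07, limma). Heterozygous minus wild-type differences were 0.38 (adjusted p = 0.0592) and 0.52 (adjusted p = 0.00701).

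The 250 bases before the start sites of Ppbp and Pf4 are shown because these neighbours share the same pattern; they are from RefSeq, build GRCm38.p6, on the plus strand, at chr5:90768268-90768517 and chr5:90772185-90772434. Capitals would mark TGTGGT, the core letters bound by RUNX proteins, or AGATAA, the letters bound by GATA factors, on either strand. Neither window holds a match.
Ppbp: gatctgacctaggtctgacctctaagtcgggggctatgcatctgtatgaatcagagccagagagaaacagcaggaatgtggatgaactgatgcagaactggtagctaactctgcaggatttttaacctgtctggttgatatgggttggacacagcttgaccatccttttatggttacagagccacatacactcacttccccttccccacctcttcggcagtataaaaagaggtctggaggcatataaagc
Pf4: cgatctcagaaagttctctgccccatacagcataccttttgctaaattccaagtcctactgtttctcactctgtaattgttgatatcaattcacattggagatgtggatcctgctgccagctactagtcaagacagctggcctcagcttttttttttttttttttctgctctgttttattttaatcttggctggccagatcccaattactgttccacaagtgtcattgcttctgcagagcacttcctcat

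TGTGGT was found in 14% of all 32851 RefSeq promoter windows of this length and in 11.7% of those of the tested genes. It was found in 10.6% of windows of genes above the midpoint and 9.6% of those below. By class the share was 12.8% above both genotypes, 11.8% below both, 11.8% on the wild-type side and 7.6% on the homozygous side. AGATAA, searched for after the data were seen, was in 9.99% of all windows and in 7.40% of those of the tested genes. It was in 6.22% of windows of genes above and 7.62% of those below the midpoint. A match describes the letters in a window and not binding.

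The other platelet genes followed with smaller values. Gp1bb, a subunit of the von Willebrand factor receptor, was at 6.75, 6.64 and 6.71 in wild-type, 7.14, 6.96 and 6.83 in heterozygous and 4.13, 4.20 and 3.85 in homozygous arrays. Its deviation was 1.60 ± 0.08 (SE, adjusted p = 5.73e-07, limma). Receptor subunits Gp5, Gp9, Itgb3 and Itga2b deviated by 0.84, 0.54, 0.59 and 0.40, the signalling gene Plek by 1.08, and the receptor genes Clec1b and Treml1 by 0.79 and 0.47. The 7 members not called ranged from Nbeal2 at -0.01 to the platelet tubulin gene Tubb1 at 0.18. Alox12, the platelet lipoxygenase gene, was outside this list and lay above both genotypes by 1.10. Summed levels of the list were 2839 to 2940 in wild-type, 3132 to 3207 in heterozygous and 1538 to 1594 in homozygous arrays. Of 20 genes reported as RUNX1 targets, 6 were above (Pf4, Csf1r, Alox12, Hmga2, Myl9 and Itga2b) and 1, Cdkn1a, below the midpoint. The shares over all genes were 3.64% above and 1.53% below. Pf4 and Itga2b are also in the platelet list and Csf1r in the macrophage list. Cdkn1a lost its call on leaving out any 1 array other than heterozygous array 2 or homozygous array 2.

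**Figure D4:**
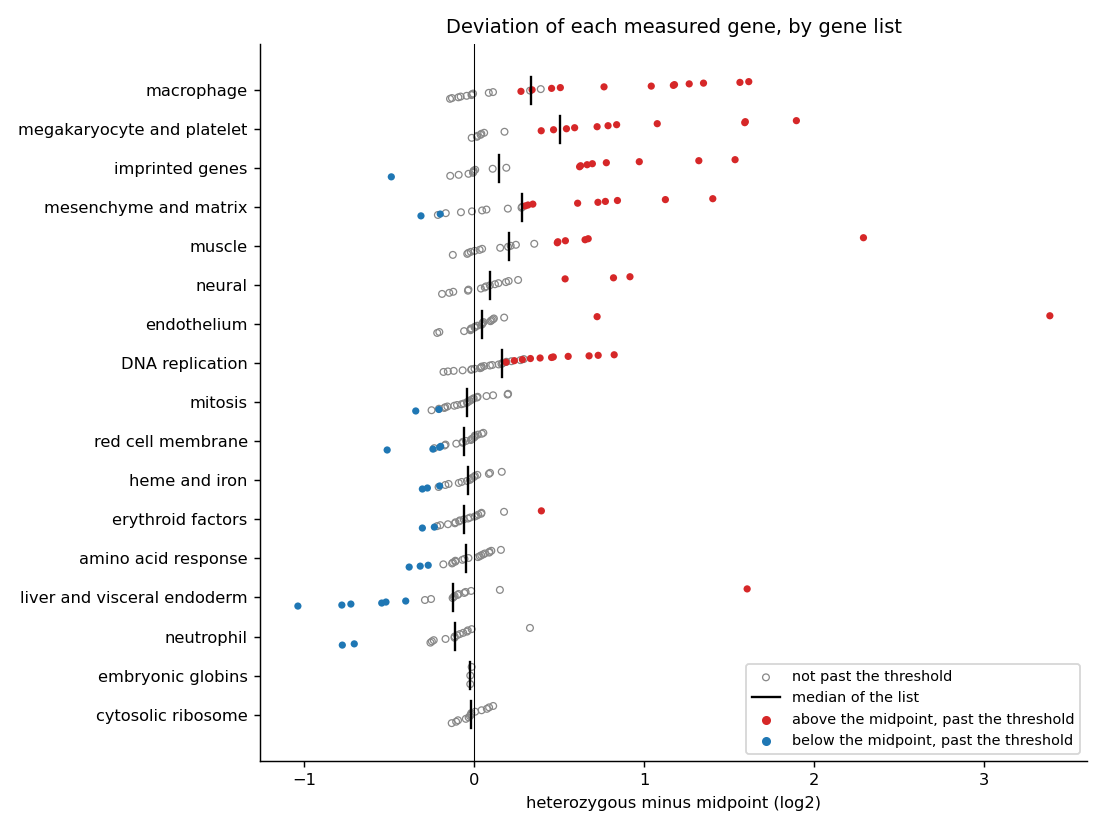
Heterozygous deviation from the midpoint (log2) of each measured gene in 17 gene lists; filled points passed the test, open points did not, and the black bar is the median of the list. The macrophage (median 0.34) and megakaryocyte lists (0.51) lie to the right, the liver and visceral endoderm list (-0.12) to the left, and embryonic globins at 0.

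Of 24 macrophage genes measured, 18 were lower in homozygous than wild-type blood, and the heterozygous position of these ran from -0.346 for Cd68 to 1.154 for the oxidase gene Cybb, which did not deviate by the test. Of the 24, 12 were above and none below the midpoint, against 3.64% and 1.53% of all genes. Of the 12, 6 were not separated from wild type and 6 lay between. The median of the list was 0.34. The mannose receptor gene Mrc1 was at 7.88, 7.79 and 7.79 in wild-type, 7.69, 7.72 and 7.65 in heterozygous and 4.30, 4.36 and 4.32 in homozygous arrays. Its deviation was 1.62 ± 0.05 (SE, adjusted p = 6.68e-09, limma), and the heterozygote had covered 0.04 of the distance from wild type to homozygote. The complement gene C1qa was at 6.93, 6.93 and 6.94 in wild-type, 6.95, 7.04 and 6.97 in heterozygous and 3.43, 4.36 and 3.95 in homozygous arrays, a deviation of 1.56 ± 0.14 (SE, adjusted p = 7.29e-05, limma). Cd68, a lysosomal glycoprotein gene, was at 1.04, the adaptor gene Tyrobp at 1.27 and the complement gene C1qc at 1.17, a call that was lost against the linear midpoint (0.46, adjusted p = 0.306, limma). Cd68 and C1qc were not separated from wild type by the test, with homozygous SDs of 0.40 and 0.61. Yet heterozygous Cd68 (5.60 to 5.74) lay above all wild-type arrays (5.20 to 5.28). Heterozygous C1qc (7.12 to 7.25) lay below all of them (7.51 to 7.60).

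Csf1r, the receptor gene on which macrophage survival depends, stood between. It was at 9.62, 9.59 and 9.64 in wild-type, at 9.06 in each heterozygous array and at 6.08, 6.28 and 6.06 in homozygous arrays. The heterozygote was lower than wild type by 0.56, which was 0.16 of the homozygous distance, and the deviation was 1.18 ± 0.06 (SE, adjusted p = 3.49e-07, limma). Its other probe sets gave 0.27, which passed, and 0.10, which did not. The Fc receptor gene Fcgr3 was likewise between, with 7.42, 7.45 and 7.41 in heterozygous arrays against 7.71 to 7.82 in wild-type and 4.29 to 4.48 in homozygous ones.

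The lysozyme genes lay nearer to the log2 midpoint. Lyz2 was at 7.41, 7.49 and 7.44 in wild-type, at 6.29 in each heterozygous array and at 4.87, 4.81 and 5.07 in homozygous arrays. Its deviation was 0.11 ± 0.06 (SE, adjusted p = 0.413, limma), with the heterozygote at 0.46 of the distance. Apoe, the lipid carrier gene made by macrophages, fell likewise from 8.15 to 8.24 in wild-type over 6.93 to 6.95 to 5.18 to 5.49 in homozygous arrays, at 0.45 of the distance. The positions of Lyz1 and of Mpo, a granule enzyme gene of early myeloid cells, were 0.40 and 0.35. Measured against the linear midpoint, Lyz1, Lyz2 and Apoe were below it, by -0.49, -0.38 and -0.46 (adjusted p = 0.0188, 0.00754 and 0.00442, limma), the opposite sign to the log2 midpoint, and the protease gene Ctss turned from 0.34 to -0.26 (adjusted p = 0.152, limma). The log2 call of Ctss was also lost with reference genes or poly-A spike-ins set equal, and without wild-type array 1 or 3 or any 1 of the heterozygous arrays. Of the 24 macrophage genes, 9 were above and 2 below the linear midpoint. Mrc1 (0.75), C1qa (0.89), Tyrobp (0.51), Csf1r (0.32) and Fcgr3 (0.52) were above both midpoints. The difference between these genes and the lysozymes was not itself tested. Siglec1, Timd4, Ccr2 and Cx3cr1, markers of tissue macrophages and monocytes, were near 0, between -0.01 and 0.09, with homozygous levels within 0.14 of wild type. Summed macrophage levels were 2804 to 2872 in wild-type, 2089 to 2131 in heterozygous and 589 to 592 in homozygous arrays.

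Among genes with large homozygous changes the median heterozygote lay nearer to wild type where homozygous levels were lower, and nearer to the homozygote where they were higher. Position was counted as 0 at the wild-type and 1 at the homozygous mean. Among 375 genes with a homozygous change of at least 1, the median position was 0.353, with quartiles of 0.231 and 0.481. It was 0.336 for the 346 lower genes and 0.623 for the 29 higher ones. The higher and lower genes were not compared by a test, since position is built from the same arrays. With a minimum change of 2, where 35 genes were left and all were lower, the median was 0.123: 8 lay beyond wild type, 16 between 0 and 0.25 and 11 between 0.25 and 0.5. With a minimum of 0.5 it was 0.416. With genes chosen anew under each scaling, the median was 0.451 with reference genes and 0.564 with poly-A spike-ins set equal. These medians are therefore not over the same 375 genes. Setting the poly-A spike-ins equal lowers all heterozygous values by 0.88 and all homozygous values by 1.58 against wild type, which by itself moves positions. Whether the median of the same 375 genes changes side with the scaling was not tested.

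**Figure D5:**
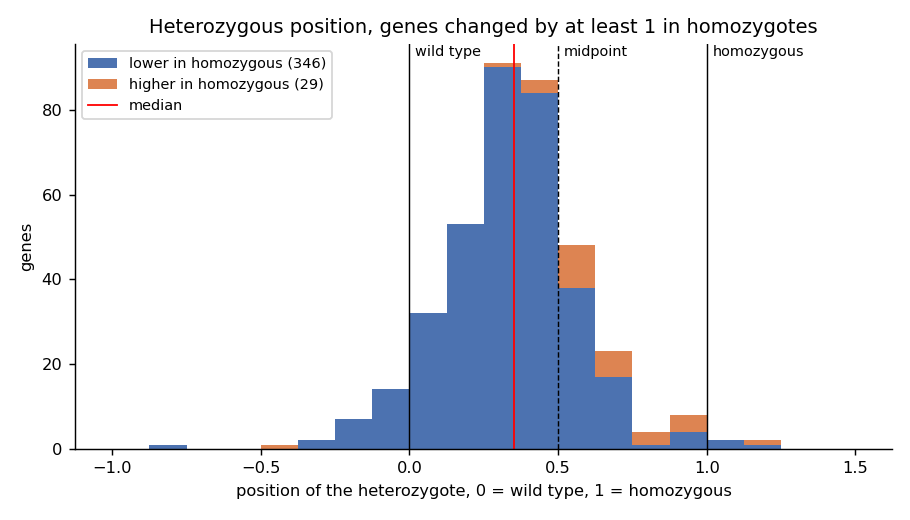
Number of genes by the position of the heterozygous mean between wild type (0) and homozygote (1), for 375 genes with a homozygous change of at least 1 on the log2 scale; blue, 346 genes lower and orange, 29 genes higher in homozygotes. The red line is the median at 0.353.

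An even response on the log2 scale was also measured. For 97 of the 375 genes the 95% interval of the deviation lay wholly within 0.25 of the log2 midpoint, 86 of them lower and 11 higher in homozygotes. A further 156 deviated by the test and 122 could not be placed either way. Gadd45a, a stress-induced growth arrest gene, was at 9.59, 9.60 and 9.64 in wild-type, 8.70, 8.68 and 8.69 in heterozygous and 8.06, 7.89 and 7.86 in homozygous arrays, a deviation of -0.08. It was below the linear midpoint by the test (-0.31, adjusted p = 0.0114, limma), and below the log2 midpoint with reference genes set equal (-0.18, adjusted p = 0.0488), so that being placed near the midpoint holds for the deposited log2 scale. The glycolytic enzyme gene Tpi1 rose by like steps, from 8.96, 8.97 and 9.02 over 9.67, 9.67 and 9.71 to 10.39, 10.33 and 10.31. The heme exporter gene Flvcr1, the sodium pump subunit gene Atp1b2, the nucleoside diphosphate kinase gene Nme1 and the lysosomal protease gene Ctsl were among the same 97. Runx1t1, a corepressor gene and fusion partner of RUNX1, was at 7.18, 7.10 and 7.29, then 6.67, 6.55 and 6.53, then 5.79, 5.66 and 5.85, with a deviation of 0.11 ± 0.06 (SE, adjusted p = 0.456, limma).

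Genes of core binding factor itself did not deviate by the test. Cbfb was at 6.00, 6.04 and 5.98 in wild-type, 5.73, 5.80 and 5.79 in heterozygous and 4.93, 5.13 and 5.25 in homozygous arrays. Its groups did not overlap, and its deviation of 0.22 ± 0.07 did not pass (SE, adjusted p = 0.107, limma), although it passed without homozygous array 3. Whether its probe set falls inside the changed stretch of the gene is not known here, and the values are no check of the labels. Runx1 was at -0.02 and Myh11 at -0.07, and none of the 7 genes of the list passed. Over all genes 5.18% deviated, so the absence of a call among 7 genes says little.

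Of 33 DNA replication genes measured, 11 were above and none below the midpoint, with a median of 0.17. Over all genes 3.64% were above and 1.53% below. Of the 11 replication genes, 5 were above both genotypes and 3 were not separated from the homozygote. In the homozygote itself 15 of the 33 were higher than in wild type, against 10.7% of all genes. In heterozygous blood 18 of the 33 were higher than in wild type, against 4.79% of all genes. Cdc6, which loads the replicative helicase, was at 5.70, 5.70 and 5.65 in wild-type, 6.97, 6.96 and 6.82 in heterozygous and 7.15, 7.03 and 6.94 in homozygous arrays. Its deviation was 0.55 ± 0.06 (SE, adjusted p = 0.000265, limma), and heterozygous and homozygous arrays overlapped. Its partner Cdt1 was at 7.75, 7.83 and 7.78, then 9.23, 9.24 and 9.18, then 9.03, 8.96 and 9.00, so that heterozygous arrays were the highest. It deviated by 0.82 ± 0.05 (SE, adjusted p = 1.07e-06, limma). The helicase subunit genes Mcm4 (0.73) and Mcm6 (0.68), the sliding clamp gene Pcna (0.46) and the ribonucleotide reductase gene Rrm2 (0.39) were also above both genotypes. Mcm5 (0.47) and Mcm7 (0.33) were not separated from the homozygote. With reference genes or poly-A spike-ins set equal, 8 of the list were above and 2 below the midpoint. Of 24 mitosis genes none was above and 2 were below, Nusap1 at -0.34 and Cdk1 at -0.21, the latter lost without any 1 of the wild-type or heterozygous arrays, and Mki67, Ccnb2 and Top2a were at -0.01, -0.12 and -0.16 without passing.

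Several other genes had already arrived at the homozygous level in heterozygotes. Maob, a monoamine oxidase gene, was at 6.52, 6.57 and 6.47 in wild-type, 4.78, 4.73 and 4.89 in heterozygous and 4.72, 5.18 and 4.85 in homozygous arrays. Its deviation was -0.92 ± 0.09 (SE, adjusted p = 8.72e-05, limma), and its heterozygous minus homozygous difference was -0.12 with a 95% interval from -0.34 to 0.10. Plaat3, a phospholipase gene, was at 7.29, 7.22 and 7.06, then 5.74, 5.74 and 5.81, then 5.83, 5.66 and 5.87, a deviation of -0.72. In both genes the heterozygous and homozygous arrays overlapped and lay apart from wild type.

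Of 20 red cell membrane and maturation genes none was above and 4 were below the midpoint, where 1.53% of all genes were below: the glucose transporter gene Slc2a1 (-0.51), the spectrin gene Sptb (-0.24), the transferrin receptor gene Tfrc (-0.20) and the adducin gene Add2 (-0.20). Slc2a1 and Tfrc were on the homozygous side, while Sptb was not separated from wild type. Slc2a1 was at 10.63, 10.74 and 10.71 in wild-type, 9.71, 9.66 and 9.81 in heterozygous and 9.93, 9.68 and 9.74 in homozygous arrays. Of 18 heme and iron genes 3 were below, Abcb10 (-0.30), Uros (-0.27) and Tfrc. The factor gene Lmo2, part of the erythroid GATA1 complex, was at 8.44, 8.47 and 8.44, then 7.73, 7.74 and 7.59, then 7.65, 7.49 and 7.45, with a deviation of -0.30 (adjusted p = 0.0136, limma), and its cofactor gene Ldb1 was at -0.23. Lmo2 lost its call without heterozygous array 3 (adjusted p = 0.0706), and Ldb1 lost it without any 1 of the heterozygous arrays or wild-type array 1 or 3, so that 0 to 3 of 19 erythroid factor genes were below when 1 array was left out. Klf3, an erythroid repressor gene, was above the midpoint by 0.40. Of the 4 membrane calls 1 or 2 were left when any single array was left out, Tfrc and Add2 lost theirs every time, and Sptb lost its call without any 1 of the heterozygous arrays. With reference genes set equal 8 of the 20 were below.

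The heterozygote was below both genotypes for genes of varied roles. Csf2rb, the shared receptor chain for interleukin 3 and GM-CSF, was at 9.57, 9.59 and 9.61 in wild-type, 8.92, 8.89 and 8.91 in heterozygous and 9.76, 9.63 and 9.67 in homozygous arrays. All 3 heterozygous arrays lay below the other 6, which spanned 9.57 to 9.76, and the deviation was -0.73 ± 0.05 (SE, adjusted p = 4.28e-06, limma), with -0.76 by a second probe set. The calcium-binding protein gene S100g deviated by -0.75, the kinase phosphatase gene Dusp10 by -0.66, the snoRNA host gene Snhg1 by -0.59, the galectin gene Lgals2 by -0.59 and the ciliary transport gene Ift140 by -0.58, each below both genotypes. Ift140 was at 9.89, 9.93 and 9.88 in heterozygous arrays and between 10.29 and 10.67 in the others.

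Of 18 genes of fetal liver and visceral endoderm measured, 6 were below and 1 above the midpoint, with a median of -0.12. The shares over all genes were 1.53% below and 3.64% above. Afp, the fetal serum protein gene, was at 7.83, 7.88 and 7.88 in wild-type, 7.41, 7.42 and 7.23 in heterozygous and 9.04, 8.87 and 8.85 in homozygous arrays. All 3 groups were apart and the heterozygote was the lowest, with a deviation of -1.04 ± 0.06 (SE, adjusted p = 1.86e-06, limma). The apolipoprotein genes Apoa1 (-0.78), Apoa2 (-0.54) and Apoc2 (-0.52), the retinol carrier gene Rbp4 (-0.72) and the thyroxine carrier gene Ttr (-0.40) were not separated from wild type. Alb, the albumin gene, was at -0.10 and Hnf4a at -0.25 without passing. The member above was Dab2, an endocytic adaptor gene also found in macrophages, at 7.61 in each wild-type array, 8.00, 8.14 and 8.09 in heterozygous and 5.28, 5.46 and 5.27 in homozygous arrays, a deviation of 1.61. Summed levels of the list were 1120 to 1147 in heterozygous, 1354 to 1372 in wild-type and 1383 to 1480 in homozygous arrays.

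The calprotectin genes of neutrophils were lower in heterozygous than in wild-type blood and lay below the midpoint. S100a8 was at 6.17, 5.82 and 5.85 in wild-type, 4.60, 4.58 and 4.70 in heterozygous and 4.94, 4.99 and 4.62 in homozygous arrays, a deviation of -0.77 ± 0.09 (SE, adjusted p = 0.000705, limma). S100a9 was at 5.15, 5.26 and 5.26, then 4.74, 4.17 and 3.95, then 4.64, 4.86 and 4.76, a deviation of -0.70 ± 0.13 (SE, adjusted p = 0.0113, limma) that did not pass without heterozygous array 2 or 3. Heterozygous and homozygous arrays overlapped in both. They were the only called genes among 15 neutrophil genes, while 1.53% of all genes were below the midpoint. Elane, Ltf and Camp were between -0.24 and -0.04. Mpo, also on this list, went the other way at 0.33 and did not pass (adjusted p = 0.0567, limma). It passed with the replicate number as a block (adjusted p = 0.0487, limma).

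The windows before S100a8 and S100a9, whose start sites lie 26650 bases apart on chromosome 3, are shown because the 2 products form a dimer and the genes had the same direction. They are from RefSeq, build GRCm38.p6, at chr3:90668821-90669070 on the plus and chr3:90695722-90695971 on the minus strand, each written 5′ to 3′ toward its start. Capitals mark ACCACA, which is TGTGGT on the other strand, beginning 64 bases before the start of S100a9, and AGATAA beginning 30 bases before it.
S100a8: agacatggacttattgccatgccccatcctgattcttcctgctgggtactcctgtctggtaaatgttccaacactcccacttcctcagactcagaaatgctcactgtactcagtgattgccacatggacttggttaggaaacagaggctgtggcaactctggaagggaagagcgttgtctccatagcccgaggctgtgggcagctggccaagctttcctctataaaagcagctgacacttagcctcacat
S100a9: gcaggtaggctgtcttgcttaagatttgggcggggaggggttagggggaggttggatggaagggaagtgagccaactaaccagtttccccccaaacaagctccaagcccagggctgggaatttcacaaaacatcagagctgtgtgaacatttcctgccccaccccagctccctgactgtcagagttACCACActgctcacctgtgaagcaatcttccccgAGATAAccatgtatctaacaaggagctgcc
The S100a8 window holds neither motif.

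Stress and signalling genes were called one at a time, where 3.64% of all genes were above and 1.53% below the midpoint. Among 20 amino acid response genes 3 were below the midpoint, the transcription factor genes Atf5 (-0.38) and Ddit3 (-0.32), which were higher in homozygotes and not separated from wild type in heterozygotes, and the serine synthesis gene Psph (-0.27). Among 19 chaperone and unfolded protein response genes 3 were above, Hspd1 (0.40), Dnajb9 (0.35) and Hspe1 (0.20). Against the linear midpoint 1 of them was left, with Dnajb9 (0.23, adjusted p = 0.0951) and Hspe1 (0.13, adjusted p = 0.211, limma) not passing. Hspe1 also lost its call on leaving out any 1 array other than homozygous array 1, and Dnajb9 without heterozygous array 1 or 2. Among 21 interferon response genes Rsad2 and Ifitm3 were above, both by 0.74, and among 19 immediate early genes Klf2 (0.47), Fos (0.40) and Klf6 (0.29) were above and Atf3 (-0.27) below. Klf6 did not pass against the linear midpoint (0.11, adjusted p = 0.379, limma) or without heterozygous array 2, Atf3 without heterozygous array 2 or 3, and Ddit3 without heterozygous array 2. Rsad2 was at 10.70, 10.69 and 10.70 in wild-type, 10.45, 10.49 and 10.45 in heterozygous and 8.80, 8.77 and 8.66 in homozygous arrays.

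Several lists held no deviation past the test. The 3 embryonic globins deviated by -0.02 to -0.01 and the 3 adult globins by -0.22 to 0.02, without a call. No call was made among 13 cytosolic ribosomal protein genes, 19 cholesterol synthesis genes, 15 apoptosis genes, 11 mast cell genes or 15 lymphoid genes. Of 22 oxidative phosphorylation genes 1 was above and 2 below, and of 22 proteasome genes 1 was below. Over all genes 3.64% were above and 1.53% below.

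Different probe sets of a gene gave the same sign more often than not. Of the 942 genes, 602 had at least 1 further probe set, 1313 in all. Of these 941 had the sign of the brightest, 226 were called in its direction and 1 was called in the opposite direction.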

How the data were processed

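The deposited table holds log2 expression values, 1 per probe set and array. The scale was taken as log2 from the range of 1.49 to 14.56, since the authors state none in the labels. Per the submitters' processing notes, Affymetrix Expression Console 1.0, RMA and Partek 6.5 were used, with no order given. RMA equalizes arrays, so a difference in total RNA between genotypes is not seen. Array medians lay between 4.27 and 4.30; signal over background is unknown, and the number of arrays limits the precision. Genes were named from the platform annotation: 34945 probe sets had 1 gene, 932 several and 9160 none named there. Symbols follow RefSeq, GRCm38.p6.

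Genotype means were estimated from the 9 arrays together by limma (version 3.58.1, under R 4.3.3), using lmFit, then contrasts.fit, then eBayes (2-sided; Benjamini-Hochberg over 45037 probe sets; threshold 0.05), and checked on simulated data. For the linear midpoint, the standard error came from the delta method on the moderated variance. Classes use the same threshold in the other contrasts.

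Named genes are the 15 largest deviations in each direction whose 3 heterozygous arrays all lay beyond the average of the extreme wild-type and homozygous arrays, 6 per class, up to 4 called members per list and direction (or 2 uncalled as values), and Cbfb, Runx1, Runx1t1 and Myh11. Further list members, and Lyz1, Lyz2, Apoe, Mpo and the near-midpoint genes, were named after their values were seen. Predicted genes were passed over. The members, the 35 gene lists and the tests were chosen with earlier results of these data known. Alternatives were other variance priors, weights, scalings, filters, a block, gene level, a threshold of 0.01 and leaving out each array. Figures were drawn with matplotlib 3.10.9.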

Additional observations from a re-analysis of the deposited data

Results flagged for a closer look

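The poly-A spike-ins, which served here only for 1 alternative scaling, had a mean that was higher by 0.88 on the log2 scale in heterozygous than in wild-type arrays. Their deviation from the midpoint was 0.09, and single spike-in probe sets deviated by 0.01 to 0.20. The part of the spike-in difference in the deviations of other probe sets was not tested.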

How the results depend on the processing

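A trended variance prior gave 1888 probe sets above and 943 below the midpoint, 220 below both and 539 on the homozygous side. With reference genes set equal there were 761 above, 4776 below, 165 above both, 1198 below both and 1022 on the homozygous side, 178 called list genes and a median position of 0.451. With poly-A spike-ins set equal there were 792 above, 4106 below, 31 above both, 16 below both, 61 on the wild-type side and 65 on the homozygous side, 177 list genes and a position of 0.564. At a threshold of 0.01 there were 622 above, 163 below, 142 above both, 40 below both, 351 on the wild-type side and 103 on the homozygous side. Fitted at gene level, 195 genes were above both. Position was 0.416 with a minimum change of 0.5 and 0.123 with 2. In every setting the genes for the position were chosen anew, so the positions are not over the same genes. Leaving out 1 array gave 641 to 1378 above, 238 to 487 below, 207 to 315 above both, 72 to 111 below both, 341 to 704 on the wild-type side, 129 to 312 on the homozygous side, 87 to 123 list genes and positions of 0.336 to 0.369. The lowest counts above, below, on the wild-type side and on the homozygous side came without heterozygous array 2; the cause was not tested. The linear midpoint turned the sign of Lyz1 (-0.49), Lyz2 (-0.38), Apoe (-0.46) and Ctss (-0.26).

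With the replicate number as a block, 1471 deviations passed, of which 1378 were shared with the 1675. The deviations of same-numbered arrays of different genotypes correlated at -0.0231 to 0.0695 over 9 pairs, and those of differently numbered arrays at -0.062 to 0.0341. Whether the numbers pair the samples is not settled by this, since a small shared effect would also leave low correlations. Under the block 10 named genes lost their call: Mecom, Cdkn1a, Tfrc, Add2, Ldb1, Cdk1, Rb1, Hspe1, Mrps2 and Col4a1. Lyz1 and Mpo gained one.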
